A study of Rattus norvegicus with 2 samples.

Results

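The genes described here encode subunits of SWI/SNF, also named BAF, the ATP-dependent complex that slides and evicts nucleosomes. The 10 members were a list of genes looked up by name in the deposited table of m6A peaks. The list was chosen with earlier results of these data known. Its shares and medians beside those of all genes or peaks are therefore descriptions only. They were the ATPases Smarca2 and Smarca4, the core scaffold subunits Smarcc1 and Smarcc2, the core subunits Smarcb1, Smarcd1, Smarcd3 and Smarce1, and the DNA-binding subunits Arid1a and Arid1b. Of the 10 genes, 8 had at least 1 peak (80%, exact 95% interval 44.4 to 97.5%), with 55 peaks in all, out of 8512 peaks under 4212 gene names. Among 23154 protein-coding genes of the RefSeq gene table, 17.4% had a peak, a share that includes genes neurons do not express. Smarcd1 and Smarcd3, which encode alternative versions of the BAF60 subunit, had none. The table held no expression values, so the level of these transcripts could not be read beside their peaks.

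N6-methyladenosine (m6A) is a methyl mark that a methyltransferase complex writes on adenosines of messenger RNA, and reader proteins that bind it affect splicing, export, decay and translation. The SWI/SNF complex changes composition as neural progenitors become neurons: the ATPase and core subunits are kept, while several accessory subunits are exchanged for neuronal versions. The peaks below lie on RNA of the subunit genes and are no measure of the complex on chromatin.

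The study profiled cultured hippocampal neurons from P0 Sprague-Dawley rats. It gave 2 libraries, 1 m6A immunoprecipitate (IP) and 1 input, both from neurons that had received Ara-C on day 7 in vitro and lead acetate for 48 h from day 12. The sample labels give the lead dose as 5 mM and the design text as 5 µM, and the end of exposure as day 13 or day 14. Cultures without lead are not analysed here. Every value is therefore an IP over its background within lead-exposed neurons and none is an effect of lead. With 1 library per group there is no replicate error on any value and no test was made.

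Fold enrichment, a linear ratio of IP over local background, and the score, 10 times the −log10 of the p-value, are the peak caller's own values for each region. A score of 100 corresponds to a p of 1e-10. The weakest peak of the whole table had a score of 3.02 (a p of 0.499). Its false discovery rate, like that of every other peak, was given as 100%, so the score is given beside weak peaks. Positions are those of the deposited table, 1-based; neither the labels nor the table state a genome build, and exons and strand were not assigned. Depth is unknown because the table holds no reads. In a pooled culture, fewer cells of a type and less RNA per cell cannot be told apart. A gene without a peak may also be expressed without m6A. The peaks of marker genes therefore give no measure of the share of each cell type. Of 12 neuron markers, 8 had a peak, all 8 with a score of at least 100 (highest fold 70.97), while Dcx, Nefl, Stmn2 and Tubb3 had none. Peaks lay in 1 of 8 astrocyte markers, 0 of 8 markers of the oligodendrocyte lineage and 2 of 8 microglia markers. These were Sox9 among the astrocyte markers and Aif1 and C1qa among the microglia markers, at up to 6.34-fold and below a score of 100. Gfap, Mbp and Cx3cr1 were among those without a peak. Among all protein-coding genes 17.4% had a peak, and 40.6% of all listed genes had a peak with a score of at least 100. The marker lists were not tested against these shares.

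The 55 peaks were unevenly divided. Smarca2 had 14, Smarcc1 had 13 and Smarca4 had 9, together 65.5% of them, followed by Smarcc2 and Arid1b with 5 each, Arid1a with 4, Smarce1 with 3 and Smarcb1 with 2. Of the 8 listed members, 7 had 3 or more peaks, against 23.6% of all listed genes. A peak number as high as that of Smarca2 was reached by 8 of the 4212 gene names, as high as that of Smarcc1 by 10 and as high as that of Smarca4 by 48.

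**Figure D1:**
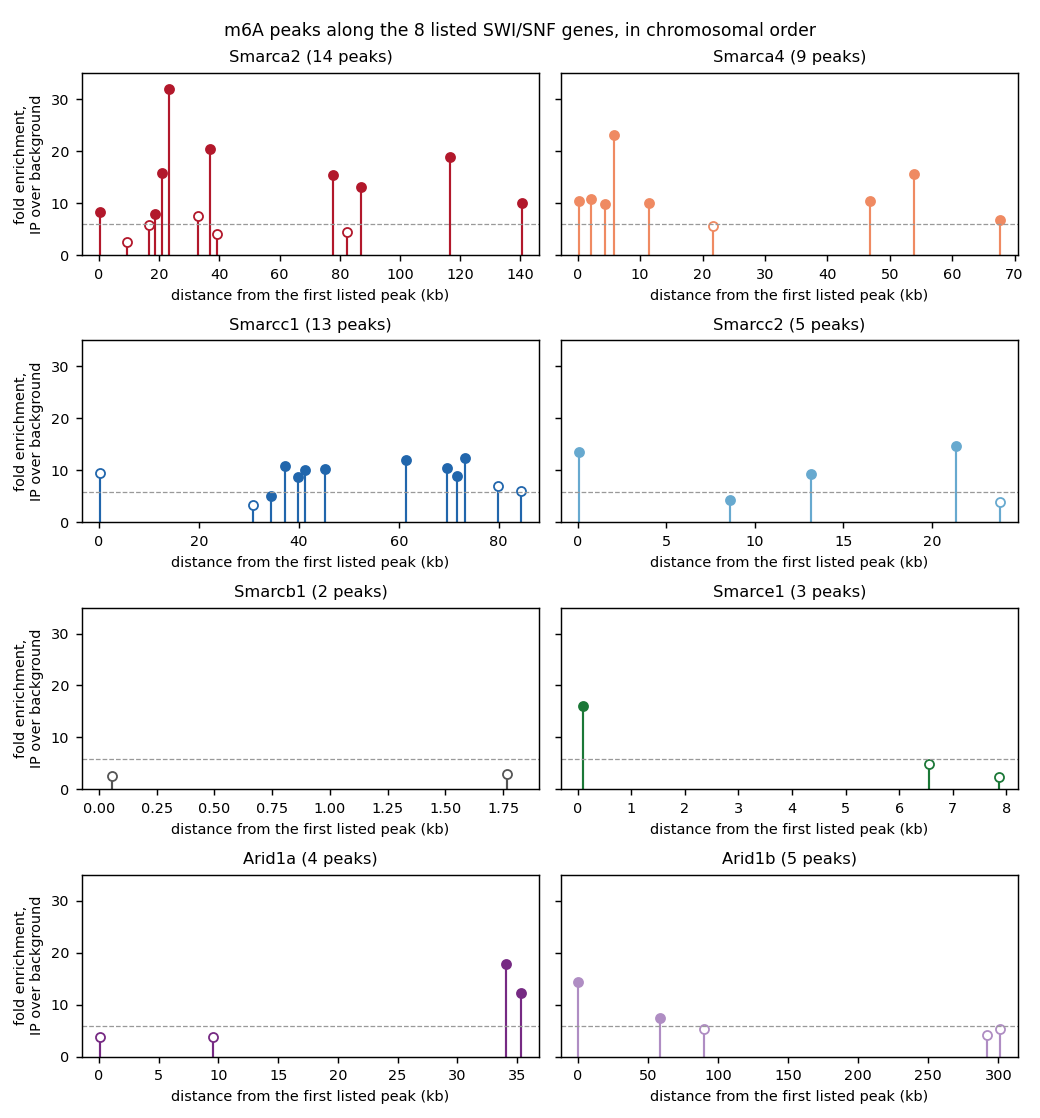
Each panel plots the peaks of 1 gene as stems, with fold enrichment of IP over background (y axis) against the distance in kb from the gene's first listed peak (x axis, chromosomal direction; the scale differs between panels). Filled circles have a p of at most 1e-10, open circles a larger p, and the dashed line is the median of all 8512 peaks, 5.9. The stems of Smarca2 reach 31.87 and those of Smarca4 reach 23.19, those of Smarcc1 stay at or below 12.4, and both stems of Smarcb1 are open and below the dashed line.

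Smarca2 and Smarca4 encode BRM and BRG1, the alternative ATPases of the complex. The highest fold among the SWI/SNF genes lay in Smarca2 (31.87) and the next in Smarca4 (23.19). By score, peaks of Smarcc2 (2790.96) and of the further subunit gene Brd7 (2622.81) stood above those of both ATPase genes. The 23 peaks of Smarca2 and Smarca4 had a median fold of 10.11, against 5.9 over all 8512 peaks. Of these 23, 17 (73.9%) had a p of at most 1e-10, against 32.9% of all peaks.

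The Smarca2 peaks lay between bases 251892555 and 252033082 of chromosome 1, a span of 140.5 kb. In chromosomal order their fold enrichments were 8.2, 2.56, 5.71, 7.86, 15.83, 31.87, 7.43, 20.38, 4.15, 15.51, 4.35, 13.05, 18.86 and 9.93. The lengths, in the same order, were 450, 262, 127, 174, 174, 171, 54, 131, 101, 228, 78, 219, 218 and 143 bases. Strong and weak peaks were interspersed along the gene: 6 peaks reached 10-fold, and the weakest, at 2.56-fold, had a score of 5.4 (a p of 0.288). The strongest, the 6th, spanned bases 251915724 to 251915894 with a score of 2129.33, and 83 peaks of the whole table had a higher fold. The gaps between neighbouring peaks were 8851, 7035, 1823, 2113, 2160, 9422, 4001, 2147, 38515, 4517, 4415, 29412 and 23587 bases. The peaks thus stood closer in the first part of the span, where the 4th to 6th were separated by 2113 and 2160 bases, than in the last.

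The 9 Smarca4 peaks lay between bases 22723723 and 22791525 of chromosome 8, within 67.8 kb. Their fold enrichments in chromosomal order were 10.32, 10.72, 9.84, 23.19, 10.11, 5.66, 10.41, 15.53 and 6.8, with lengths of 259, 174, 174, 168, 131, 122, 219, 254 and 143 bases. Apart from the 4th and the 8th, no peak exceeded 10.72-fold, and none was below 5.66-fold. All but the 6th, which had a score of 37.32, had a p of at most 1e-10. Among the 48 genes with 9 or more peaks, Smarca4 had the second largest share of peaks at that p (88.9%, against a median of 50% over the 48 genes) and ranked 4 by the fold of its weakest peak. The strongest peak spanned bases 22729463 to 22729630 and had a score of 2508.23. The gaps were 1827, 1940, 1366, 5445, 10098, 25099, 6814 and 13570 bases, so here too the closest peaks came first.

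Set side by side after their values had been seen, some peaks of both ATPase genes showed the same lengths in the same order. Reading along the chromosome, 5 lengths recurred in order: 174, 174, 131, 219 and 143 bases. Between the second and the third of these lay the strongest peak of each gene, 171 bases in Smarca2 and 168 in Smarca4. A length of 174 bases was held by 41 of the 8512 peaks, 131 by 45, 219 by 18 and 143 by 33. Among the other 303 genes with 5 or more peaks, Smarca4 was the only gene that shared 3 or more lengths in order with Smarca2. Of the rest, 4 genes shared 2, 82 shared 1 and 216 shared none. Genes with fewer peaks have fewer lengths that can match, and 48 genes of the whole table had the 9 or more peaks of Smarca4. The distances did not match as the lengths did. The gaps on either side of the second 174-base peak were 2113 and 2160 bases in Smarca2, against 1940 and 1366 bases in Smarca4. The place of these regions relative to exons was not analysed here.

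Across the 6 matched regions, fold enrichment was higher in Smarca2 in 5. The first 174-base region was the exception, at 7.86-fold in Smarca2 against 10.72-fold in Smarca4. The second stood at 15.83 in Smarca2 and 9.84 in Smarca4. The strongest region stood at 31.87 in Smarca2 and 23.19 in Smarca4, and so was the highest of the 6 in both genes. Its 2 peaks were not of equal length and were paired with a tolerance of 3 bases. The comparison with the other genes used no such tolerance. The 131-base region stood at 20.38 in Smarca2 and 10.11 in Smarca4, the 219-base region at 13.05 in Smarca2 and 10.41 in Smarca4, and the 143-base region at 9.93 in Smarca2 and 6.8 in Smarca4. The ratio of Smarca2 to Smarca4 ranged from 0.73 to 2.02 with a median of 1.42. Apart from the shared maximum the order of the regions differed, with a Spearman coefficient of 0.26 over 6 regions of the same pair of libraries. Between the last 2 matched regions each gene had 1 further strong peak, of 218 bases and 18.86-fold in Smarca2 and of 254 bases and 15.53-fold in Smarca4. In Smarca2 the 6 matched peaks had a median fold of 14.44 and the 8 others 6.57, while in Smarca4 the medians were 10.26 for the 6 and 10.32 for the 3 others. Reads that could map to both genes were not examined here.

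**Figure D2:**
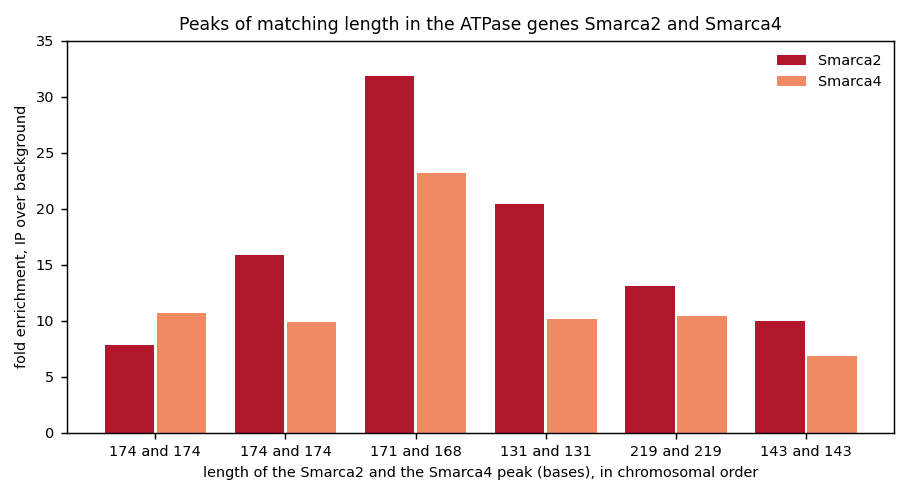
Bars give the fold enrichment of IP over background (y axis, from 0) of 6 peaks of Smarca2 and 6 peaks of Smarca4. The peaks match in order and in length, 5 pairs exactly and 1 within 3 bases. The x axis gives both lengths in bases. There is 1 value per bar and no error. The third pair, 171 and 168 bases long, is the highest in both genes (31.87 and 23.19), and Smarca4 is higher only in the first pair.

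Smarcc1 and Smarcc2 encode BAF155 and BAF170, the paired scaffold proteins around which the core of the complex assembles. Smarcc1 had many peaks, none of them far above the gene's median fold. Its 13 peaks lay between bases 117561617 and 117646286 of chromosome 8, within 84.7 kb, and their folds in order were 9.48, 3.41, 5.1, 10.8, 8.73, 10.02, 10.27, 11.93, 10.43, 8.88, 12.4, 7.07 and 6.1. The highest, at bases 117634844 to 117634998, was 1.31 times the median of the gene's peaks (9.48), the smallest such ratio among the 48 genes with 9 or more peaks, whose median ratio was 2.10. The highest score fell elsewhere, at 1187.56 in the 8.88-fold peak of bases 117633244 to 117633358.

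The Smarcc1 regions were short, with lengths of 278, 76, 126, 122, 125, 60, 38, 162, 56, 115, 155, 135 and 262 bases and a median of 125, against 161 over all peaks. The 4 regions under 100 bases included 3 of 10.02-, 10.27- and 10.43-fold. Scores under 100 occurred in 4 of the 13 peaks: the first (61.65), the second (11.34) and the last 2 (58.94 and 9.33). The gaps were 30499, 3470, 2768, 2457, 1277, 3954, 16206, 7925, 2028, 1485, 6340 and 4551 bases, which left the first peak well apart from the rest.

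Smarcc2 had 5 peaks between bases 2852070 and 2875951 of chromosome 7, within 23.9 kb, of 13.58-, 4.3-, 9.36-, 14.7- and 3.99-fold. They were 111, 132, 131, 259 and 135 bases long and 8435, 4439, 8002 and 2238 bases apart. The 14.7-fold peak, at bases 2873320 to 2873578, had a score of 2790.96, the highest of any member. The last peak was weak in both measures (score 12.07, a p of 0.0621). The second, at bases 2860616 to 2860747, combined a low fold with a high score: its 488.39 was the highest score among the 950 peaks of 4.0- to 4.6-fold, whose median was 12.8 and whose next highest was 273.33. That window of fold was chosen after the value had been seen. Between the scaffold genes 1 length, 135 bases, recurred, at 7.07-fold in Smarcc1 and 3.99-fold in Smarcc2.

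**Figure D3:**
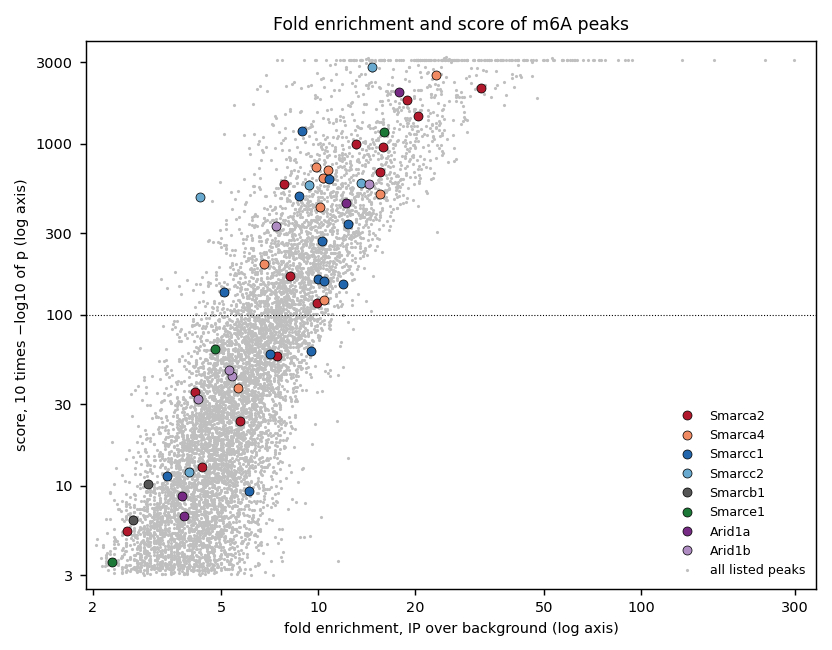
Each point is 1 peak, with fold enrichment of IP over background (x axis, log) and score (y axis, log); grey points are all 8512 peaks and coloured points the 55 peaks of the listed members. The dotted line marks a score of 100. Most member peaks lie inside the grey band; the Smarcc2 peak of 4.3-fold and score 488.39 lies to its left.

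Among the remaining core subunits, peaks were few. Smarcb1, which encodes SNF5, the subunit that contacts the nucleosome's acidic patch, had 2 peaks of 2.67- and 2.96-fold. They were 112 and 130 bases long, 1590 bases apart, between bases 15840416 and 15842247 of chromosome 20. Their scores were 6.33 (a p of 0.233) and 10.19 (a p of 0.0957), so neither reached a p of 0.05, and 8164 of the 8512 peaks had a higher fold than the stronger of them.

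Smarce1, which encodes the HMG-box subunit BAF57, had 1 strong and 2 weaker peaks on chromosome 10, of 16.02-, 4.8- and 2.29-fold. The strong one, at bases 86916514 to 86916724, was 211 bases long with a score of 1173.22. The others were 172 and 81 bases long, ended at base 86924411 and had scores of 62.68 and 3.59; the gaps were 6269 and 1165 bases. Smarce1 thus rested on a single region for its strength. Smarcd1 and Smarcd3 had no peak under their symbol, under an older symbol or under their gene or transcript identifiers.

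Arid1a and Arid1b encode the alternative ARID subunits that define canonical BAF complexes. In Arid1a the fold was high at 1 end of the gene's peaks only. The 4 peaks, between bases 155600251 and 155635649 of chromosome 5, had folds of 3.83, 3.79, 17.84 and 12.2 and scores of 6.64, 8.73, 1996.21 and 451.65. The strong pair spanned bases 155634077 to 155634532 (456 bases) and 155635435 to 155635649 (215 bases). The 902 bases between them were the smallest gap in any member. The weak peaks, 168 and 241 bases long, lay 24165 bases or more away.

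Arid1b had 5 peaks spread over 301.8 kb of chromosome 1, the widest span of the members, from base 47239545 to base 47541345. Their folds in order were 14.33, 7.42, 5.39, 4.23 and 5.3, with scores of 577.09, 329.62, 43.65, 31.94 and 47.66. The first, at bases 47239545 to 47239745, was 201 bases long, and the others were 150, 111, 173 and 784 bases long. The last was the longest region of any member. The gaps were 58715, 30611, 202155 and 8901 bases. No length recurred in order between Arid1a and Arid1b.

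Over all members, the 55 peaks had a median fold of 9.36 (order-statistic 95% interval 6.8 to 10.41, which treats peaks as independent although many share a transcript). All 8512 peaks had a median of 5.9. The members and 20 further subunit genes, described below, together had 89 peaks with a median of 6.8. Smarca2, Smarcc1 and Smarca4 held 36 of the 55 peaks, and the medians of the single genes were below 5.9 in 3 of the 8 members: Arid1b (5.39), Smarce1 (4.8) and Smarcb1 (2.815). A fold of at least 10 was found in 24 of the 55 (43.6%), against 17.3% of all peaks, and a p of at most 1e-10 in 35 (63.6%), against 32.9%. The last set held 7 of the 8 listed members, all but Smarcb1, whereas 40.6% of all listed genes had such a peak. A p above 0.05 was found in 10 member peaks (18.2%), against 28.2% of all peaks. The highest fold of each listed member had a median of 15.36, against 6.62 over all listed genes. Genes with many peaks draw their maximum from more values, and the members had many.

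The median length and spacing of the member regions were near those of all peaks, while long regions and close neighbours made up smaller shares. The median length of the member peaks was 155 bases (quartiles 123.5 and 216.5), against 161 over all peaks (quartiles 112 and 248). Regions under 100 bases made up 12.7% of member peaks and 18.5% of all peaks, and those of 400 bases or more, 1 each in Smarca2, Arid1a and Arid1b, 5.45% of member peaks and 14.4% of all peaks. Of the 47 gaps between neighbouring member peaks 1 was within 1 kb (2.13%, against 7.93% of 4288 gaps in the whole table) and 23 within 5 kb (48.9%, against 52.3%). The median gap was 5.445 kb among members and 4.628 kb in the whole table. Fold and score ranked the member peaks alike (Spearman 0.87, against 0.83 over all peaks), and fold and length less so (0.30, against 0.12). These coefficients are across peaks of 1 pair of libraries.

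Of the other subunits of the complex, the same share was listed as of the members, with lower folds. Of 20 further BAF, PBAF and ncBAF genes, 16 had a peak (80%, exact 95% interval 56.3 to 94.3%), and 7 of the 16 kept a peak when p was limited to 1e-10, against 40.6% of all listed genes. Their 34 peaks had a median fold of 4.735, against 5.9 over all peaks. The median of their highest fold per gene was 5.37, against 6.62 over all listed genes. With the 10 members included, the 30 genes had 89 peaks with a median fold of 6.8. The order-statistic 95% interval of that median, 5.3 to 8.24, included the 5.9 of all peaks. At least 10-fold was reached by 3 of the 34 peaks (8.82%, against 17.3% of all peaks), which lay in Brd9, Brd7 and Dpf1. Brd9, a bromodomain subunit of ncBAF, had peaks of 22.32- and 8.24-fold; the stronger was at bases 33391424 to 33391638 of chromosome 1. Brd7, a bromodomain subunit of PBAF, had 4 peaks of 20.74-, 5.53-, 8.34- and 4.73-fold. The strongest was 60 bases long, at bases 30698186 to 30698245 of chromosome 19, with a score of 2622.81. Pbrm1, the polybromo subunit of PBAF, had 2 peaks of 3.2- and 4.76-fold with scores of 4.57 and 18.43. Arid2 of PBAF, Dpf2, and the ncBAF subunits Bicra and Bicral had none.

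Subunits that neurons exchange for those of progenitors were on both sides of the list. Actl6b, the neuronal actin-related subunit, had 1 peak of 4.8-fold, and its progenitor counterpart Actl6a 1 of 4.53-fold, with scores of 27.16 and 21.16. Dpf1 and Dpf3, the neuronal PHD-finger subunits, reached 15.6- and 7.96-fold in 2 and 3 peaks, and Phf10, which they replace, had 1 peak of 28 bases and 2.95-fold with a score of 4.09. Ss18l1, the neuronal subunit also called CREST, had 2 peaks of 2.83- and 2.68-fold with scores of 5.57 and 3.28. Ss18, its progenitor counterpart, had 4 peaks of up to 4.67-fold, of which the highest had a score of 5.89 and none a score above 21.53. These maxima come from unequal numbers of peaks and from 1 library per group, and no direction is drawn from them.

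Of the remaining genes, the BCL7 subunits each had peaks: Bcl7a 3 of up to 6.35-fold, Bcl7b 2 of up to 7.89-fold and Bcl7c 3 of up to 5.94-fold. Bcl11b, a zinc-finger transcription factor that joins neuronal BAF, had 2 peaks of 7.99- and 4.34-fold, the first 2601 bases long. Bcl11a had 1 of 3.09-fold (score 3.44), and Smarcd2, the third BAF60 gene, 1 of 4.48-fold (score 6.19). Smarcd2 was thus the only BAF60 gene of the 3 in the table, and its peak did not reach a p of 0.05.

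**Figure D4:**
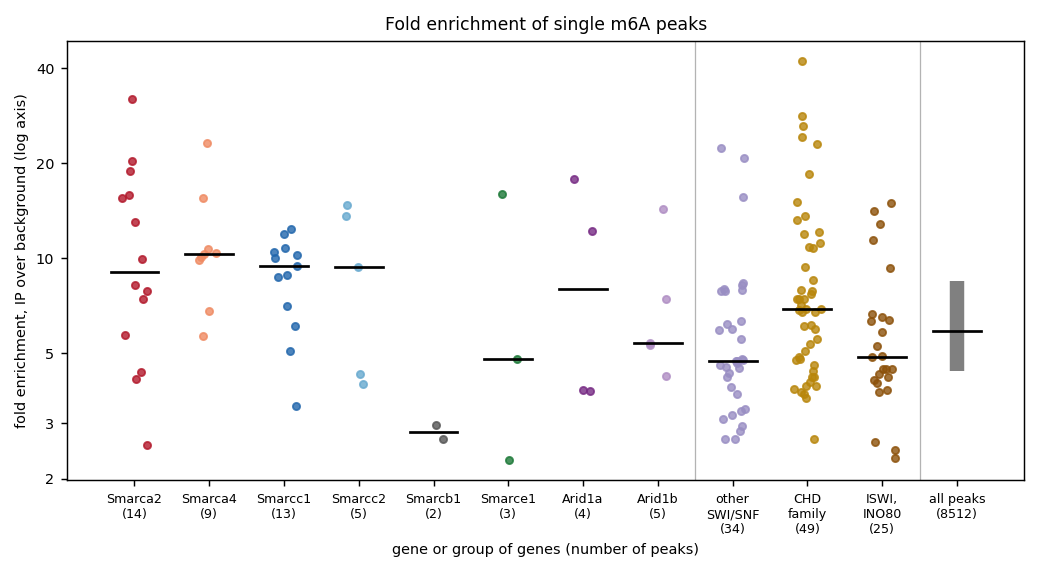
Points are single peaks and black lines medians, with fold enrichment of IP over background on a log y axis; numbers of peaks stand under each name. The 8 members are followed by the other SWI/SNF genes, the CHD family, the ISWI, INO80 and related genes, and, for all 8512 peaks, a grey bar of the quartiles. Medians of Smarca2, Smarca4, Smarcc1 and Smarcc2 lie between 9.065 and 10.32, that of Arid1a is 8.015, and those of Arid1b (5.39), Smarce1 (4.8) and Smarcb1 (2.815) lie below the 5.9 of all peaks. Medians of the 3 other groups of genes lie between 4.735 and 6.93.

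Remodellers of other families gave a scale for these values. All 9 CHD genes were listed, with 49 peaks of 6.93-fold median, 28.6% of them at least 10-fold and 46.9% at a p of at most 1e-10. In 11 of 14 genes of the ISWI, INO80 and related remodellers 25 peaks were listed, with a median of 4.88-fold and 16% at least 10-fold. The SWI/SNF members had 6.88 peaks per listed gene, the CHD family 5.44, the ISWI, INO80 and related genes 2.27 and all listed genes 2.02. The medians of the highest fold per gene were 15.36 in the SWI/SNF members, 13.57 in the CHD family and 6.35 in the ISWI, INO80 and related genes. The 10 members are only part of the 30 SWI/SNF genes looked up. All 30 together had 3.71 peaks per listed gene and a median highest fold of 7.925, both below the values of the CHD family. The interval for the 8 members, 2.96 to 31.87, is as wide as the range of their values and covered those of the CHD family (7.96 to 26.31) and of the ISWI, INO80 and related genes (4.22 to 14.07). The difference between the groups was not tested.

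The deposited annotation attached terms for neuronal or progenitor BAF to all 8 listed members and to part of the other listed subunits. These genes were chosen as SWI/SNF genes, so the terms are a description only. The cellular-component term nBAF, the neuronal form, was attached to 12 listed genes: all 8 listed members and Actl6b, Dpf1, Dpf3 and Ss18l1. The term npBAF, the progenitor form, was attached to 10: 7 members, without Arid1b, and Actl6a, Phf10 and Ss18.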

How the data were processed

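Methylated RNA immunoprecipitation sequencing was done on 1 IP and 1 input library of lead-exposed neurons, grouped by sample title, with a directional library kit per the labels' protocols. Tools named in the submitters' processing notes are HISAT2 2.0.4, STAR and cutadapt 1.9.3; their roles are not stated. The authors deposited 1 table of peaks, MACS-named per the file headers, with a fold enrichment (linear ratio), a score (10 times the −log10 of the p-value) and a false discovery rate in percent, which was 100 in all 8512 rows. For caller version, thresholds and genome build nothing is stated (not given in the sources used here). Every region was as long as its end minus its start, so starts were raised by 1 for printing. Peak numbers ran to 14090, so the table holds part of the regions numbered.

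Members were matched by deposited gene name; a match through symbols, older symbols, identifiers and accessions of the RefSeq table of GRCr8 found the same peaks. All 8 listed members lay on the chromosome that this table gives, and no other gene's peak lay within their spans. The members and lists were chosen with earlier results of these data known, and all genes of the lists are named, the compared families by counts and medians. Counts, medians and gaps (bases between neighbouring regions of a gene) are descriptions, and intervals cover counting error only; depth is unknown. Equal lengths in order are the longest common subsequence of 2 genes' lengths; a pair up to 3 bases apart between equal pairs was added. The functions for gaps, joining and length order were tested on simulated data. Alternatives were limits on p, fold and length, joining, name matching, the mean per gene and other distances. No sequence is printed, since the build of the table is unknown and no genome was used. Software was Python 3.11.15 with NumPy 2.4.6, pandas 2.3.3, matplotlib 3.10.9 and SciPy 1.17.1.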

Additional observations from a re-analysis of the deposited data

How the results depend on the processing

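Of 45 values recomputed for 7 results, 38 stayed within 1.5 times a count or within the interval of a median. For the median highest fold per member, that interval is the whole range of the 8 values (2.96 to 31.87), so staying inside it shows little. With the mean fold per gene the value was 9.001 in place of 15.36. Joining peaks within 500 bases could move no member value, since the smallest gap between member peaks was 902 bases. Matching names through the gene table returned the same peaks and so left every value unchanged. The 38 values include those of both settings. At a p of at most 1e-10 the member peaks numbered 35 in place of 55, with a median fold of 10.72 in place of 9.36, and the other SWI/SNF genes with a peak 7 in place of 16. Those genes numbered 8 at a p of at most 1e-5 and 8 at a fold of at least 5, since such limits remove weak peaks. Neighbouring member peaks numbered 0 within 200 bases and 23 within 5 kb, in place of 1 within 1 kb. Smarcb1 had no peak at either limit on p or at 5-fold. The 5 lengths shared in order by Smarca2 and Smarca4 were found under all 6 limits and matches tried, but these could hardly change them. The lowest values among the equal-length peaks were 6.8-fold, a score of 116.38 and 131 bases, all above the limits. The closest peaks of either gene were 1366 bases apart, too far to be joined. The recurrence under these settings is therefore no further support for the match. No paired analysis was possible because each group has 1 library and the result comes from no test. The missing depth limits what a gene without a peak can show.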

Other observations

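Peak numbers followed position along all 21 chromosomes, and 5578 of the 14090 numbers were not in the table. Within the span of Smarca2, 2 numbers were missing between its 12th and 14th peaks, whereas the numbers of the other 7 listed members ran without a break. What lay at those 2 regions is not analysed here. In the scaffold genes, the last 2 regions of Smarcc1 were 135 and 262 bases long and the last 2 of Smarcc2 259 and 135, in the opposite order along the chromosome; the 262-base region stood at 6.1-fold in Smarcc1 and the 259-base region at 14.7-fold in Smarcc2. The pair was picked after the values had been seen and its strand was not known.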
